A study of Rattus norvegicus with 36 samples.

Results

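Lung tissue of rats that had inhaled crystalline silica was compared with lung tissue of rats that had breathed air, 44 weeks after exposure ended. The 12 lung arrays, 6 of silica and 6 of air rats, were chosen by their tissue label from the 36 arrays of the series, which also cover blood and the cells recovered by bronchoalveolar lavage (BALF cells) of the same rats. The silica rats breathed crystalline silica at 15 mg/m3 on 5 days, 6 hours each day, and the air rats served as controls at 0 mg/m3. All were male rats of the strain Fisher (CDF) 344, labelled as about 3 months old, and each array held the lung RNA of 1 rat. Illumina BeadChips carry oligonucleotide probes on beads, and each level below is the log2 of a probe's intensity after background correction and quantile normalization over the 12 lung arrays. The surfactant protein gene Sftpc, made by alveolar type 2 cells, had levels of 14.12, 14.24 and 14.33 in silica lungs and 14.00, 14.21 and 14.28 in air lungs (lowest, median and highest of 6, the order used for every such set of levels). Scgb1a1, the main secretory protein of airway club cells, had levels of 14.80, 14.89 and 14.999 in silica lungs and 14.71, 14.80 and 14.89 in air lungs, so the defining markers of lung tissue were near the top of the scale in both groups.

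Inhaled silica crystals settle in the alveoli, where macrophages engulf them but cannot dissolve them. Crystals damage the phagolysosome that holds them, the macrophages call in monocytes and neutrophils, and alveolar type 2 cells, which secrete surfactant, multiply and swell. Around these cells lie the thin alveolar type 1 cells, the capillary endothelium with its pericytes, and a mesh of basement membrane and elastic fibres, which together form the surface for gas exchange. Because whole tissue was measured, fewer cells of a type and less RNA per cell cannot be told apart in any value below.

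Of 11399 probes detected on at least 6 of the 12 lung arrays, 2020 (17.7%) differed between silica and air lungs at an adjusted p under 0.05 (limma, two-sided, Benjamini-Hochberg over all probes tested), 942 (8.26%) higher and 1078 (9.46%) lower in silica lungs. Silica and air levels did not overlap at all for 1047 probes (9.19%). Rises reached further than falls, with 120 rises and 33 falls of at least 1.5-fold, and 42 rises and 1 fall of at least 2-fold. Most called changes were small, with a median of 1.18-fold among the rises and 1.16-fold among the falls. The 621 called changes under 1.1-fold sat at a median level of 7.69, near the background, where a log2 change understates the change in RNA, and the other 1399 sat at a median level of 9.48. When each array was shifted to a shared median, taken over probes detected on every array, in place of quantile normalization, 322 probes were higher and 659 lower, so that 32.8% of the calls were rises rather than 46.6%. Of those 981 probes, 862 were also called after quantile normalization and all 862 kept their direction. A shift to a common median over all probes left 77 calls, of which 74 were shared. Of the 146 genes named below as called, 126 were also called with the same direction under the shift over detected probes and 26 under the shift over all probes. Counts for many gene lists below are given again for the shift over detected probes, and counts given only once can move under it too. Under the shift over all probes no list kept more than 4 calls in a direction.

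**Figure D1:**
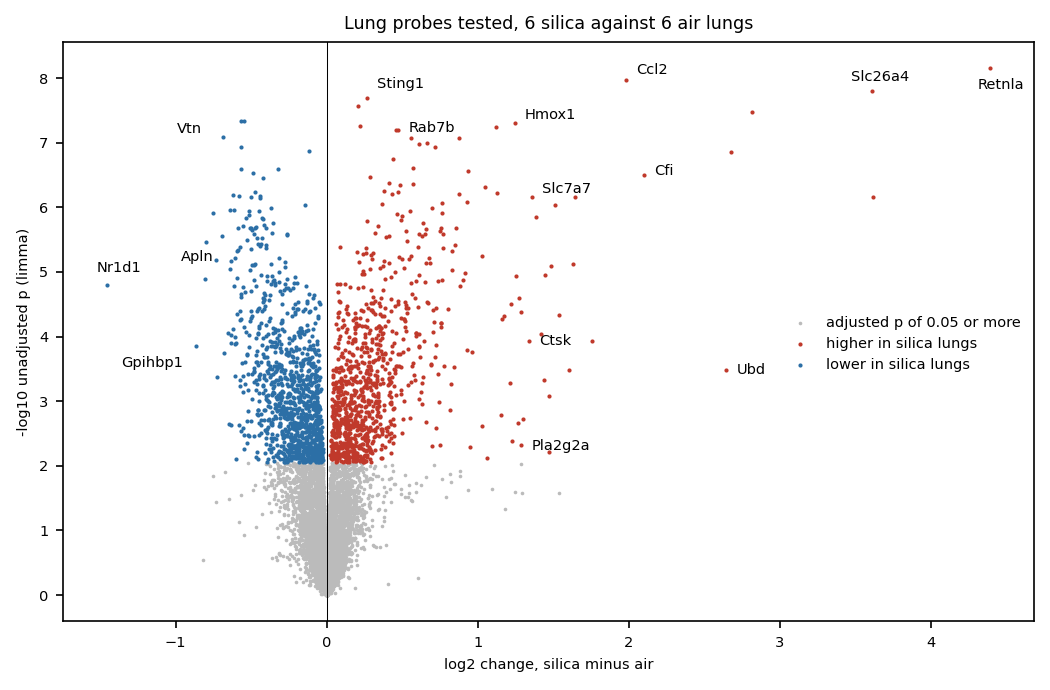
Each point is 1 lung probe, with the log2 change of silica minus air lungs (6 rats each) across and -log10 of the unadjusted limma p upward. Red points were higher and blue points lower in silica lungs at an adjusted p under 0.05, 942 and 1078 of 11399 probes, and the rises reach further from 0 than the falls.

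The lung arrays were even in quality, with 10974 to 11607 probes detected on each and a correlation of at least 0.9906 between arrays of a group. The main axis of variation over the tested probes held 48.3% of the variance and separated the exposures, with scores of -13.57 to -5.67 in silica lungs and 5.88 to 12.50 in air lungs. Markers of neighbouring tissue varied between lungs. The 8 measured markers of cardiac muscle, which rat lungs carry in their large veins, had a mean log2 level relative to the air mean of -0.52, 0.05 and 0.92 in silica lungs and -0.53, -0.50 and 2.08 in air lungs. The 8 measured markers of club, goblet and basal cells of the airways ran at -0.65, -0.09 and 0.20 in silica lungs and -0.56, -0.14 and 1.14 in air lungs. Air replicate 6 was the highest array for both lists, silica replicate 6 was the highest silica array for both, and 0 of the 8 members of either list passed the test in either direction.

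The 18 genes ranked 13 to 30 by size among the rises went up by between 1.83-fold and 2.57-fold in silica lungs, and for 17 of the 18 the silica and air levels did not overlap, against 9.19% of all probes tested. The ranking took large changes in which the silica lungs all departed from the air mean in 1 direction, which favours such separation, so nothing is read from the count. Slc7a7, an exporter of cationic amino acids whose loss in people causes lysinuric protein intolerance, had levels of 10.01, 10.23 and 10.53 in silica lungs, against 8.58, 8.93 and 9.35 in air lungs. That was a log2 change of 1.36 (SE 0.14, adjusted p = 0.000165), with every silica lung above every air lung. Ctsk, which encodes the collagen-degrading protease cathepsin K, stood at 10.98, 11.36 and 11.62 in silica lungs and 9.39, 9.80 and 10.94 in air lungs, a log2 change of 1.34 (SE 0.23, adjusted p = 0.00304). Its highest air level, on air replicate 3, almost reached the lowest silica level. Hmox1, the enzyme that breaks down haem, had levels of 10.41, 10.56 and 10.83 in silica lungs, against 9.004, 9.33 and 9.54 in air lungs, a log2 change of 1.25 (SE 0.097, adjusted p = 5.56e-05). Every silica lung lay above every air lung, with a gap between the groups wider than either group's spread.

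Ncf1 and Sod2 were also among these 18 genes. Ncf1, a cytosolic subunit of the phagocyte NADPH oxidase, had levels of 10.86, 11.25 and 11.34 in silica lungs, against 9.76, 10.06 and 10.41 in air lungs, and rose by 1.13 on the log2 scale (SE 0.11, adjusted p = 0.000165). Sod2, the mitochondrial superoxide dismutase, had levels of 11.27, 11.35 and 11.51 in silica lungs and 10.26, 10.45 and 10.76 in air lungs, a log2 change of 0.87 (SE 0.072, adjusted p = 6.1e-05). Neither gene showed any overlap between the groups. The haemoglobin-binding protein haptoglobin (Hp) rose by 1.03 on the log2 scale, and the chitinase-like protein gene Chi3l1 by 1.05. The complement genes C1s, C4b and C2 rose by 0.93, 0.89 and 0.88, and the chemokine genes Cxcl9, induced by interferon, and Ccl7, which attracts monocytes, by 1.22 and 0.94 (adjusted p of 0.000116 to 0.00752 over these 7 genes).

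Tissue factor (F3), which starts the clotting cascade, had levels of 10.47, 10.81 and 10.98 in silica lungs, against 9.68, 9.72 and 10.27 in air lungs, a log2 change of 0.90 (SE 0.12, adjusted p = 0.000846). The groups did not overlap, although air replicate 6 stood above the other air lungs. Cd177, a surface protein of neutrophils, rose by 1.28, Igsf7 by 1.22, Cxadrl1 by 0.93 and the clock repressor gene Bhlhe41 by 0.92 on the log2 scale (adjusted p of 0.000188 to 0.0014). Pla2g2a, a secreted phospholipase A2 that attacks bacterial membranes, was the exception among the 18, with 8.92, 10.42 and 11.04 in silica lungs and 8.51, 8.78 and 9.15 in air lungs. Its log2 change of 1.29 (SE 0.37, adjusted p = 0.0334) came with overlapping groups, since 2 silica lungs lay among the air lungs, and the call was lost without any 1 array other than replicates 2 and 3 of either group (adjusted p up to 0.0703).

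The 18 falls of rank 13 to 30 were smaller and close together, from 1.51-fold to 1.56-fold, and 15 of the 18 showed no overlap, a count that the ranking favours in the same way. Cspg4, the NG2 proteoglycan of pericytes, had levels of 8.24, 8.43 and 8.56 in silica lungs, against 8.96, 9.02 and 9.26 in air lungs, a log2 change of -0.64 (SE 0.068, adjusted p = 0.000216). Apln, which encodes the endothelial peptide apelin, had 10.15, 10.23 and 10.42 in silica lungs and 10.67, 10.89 and 11.09 in air lungs, a log2 change of -0.63 (SE 0.080, adjusted p = 0.000554). In both cases the highest silica lung stayed below the lowest air lung. Epas1, the hypoxia-inducible factor that lung endothelium uses, stood at 9.13, 9.30 and 9.68 in silica lungs and 9.68, 10.05 and 10.20 in air lungs, with a log2 change of -0.61 (SE 0.12, adjusted p = 0.00663). Here the highest silica lung just reached the lowest air lung.

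Among the same 18 falls, Ppp1r14a, an inhibitor of myosin phosphatase in smooth muscle, fell by 0.61 on the log2 scale, the kinase gene Dmpk fell by 0.60, the actin-binding gene Ablim3 fell by 0.63 and the Cdc42 effector gene Cdc42ep2 fell by 0.59 (adjusted p of 0.000452 to 0.00281). Zeb1 and Snai1, transcription factors that repress epithelial genes, fell too. Zeb1 had levels of 8.59, 8.76 and 8.93 in silica lungs, against 9.16, 9.43 and 9.58 in air lungs (log2 change -0.61, SE 0.085, adjusted p = 0.000949), and Snai1 fell by 0.59 (adjusted p = 0.00083). Tcrg, a gamma chain of the T cell receptor, had levels of 9.04, 9.20 and 9.70 in silica lungs and 9.74, 9.91 and 10.17 in air lungs, a log2 change of -0.63 (SE 0.11, adjusted p = 0.00319), with no overlap. The remaining falls of these ranks were Slc29a1, a nucleoside transporter gene, the aldo-keto reductase gene Akr1c19, the selenoprotein gene Selenom, and C1qtnf7 and Entrep1, with log2 changes of -0.64 to -0.61 and adjusted p of 0.000165 to 0.00237. Serpinb10 and Akap5, a kinase anchoring protein gene, had log2 changes of -0.63 and -0.60 with adjusted p of 0.0201 and 0.0463 and overlapping groups. The call of Akap5 was lost without any 1 array other than air replicates 5 and 6 and silica replicates 2 and 3 (adjusted p up to 0.0966).

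**Figure D2:**
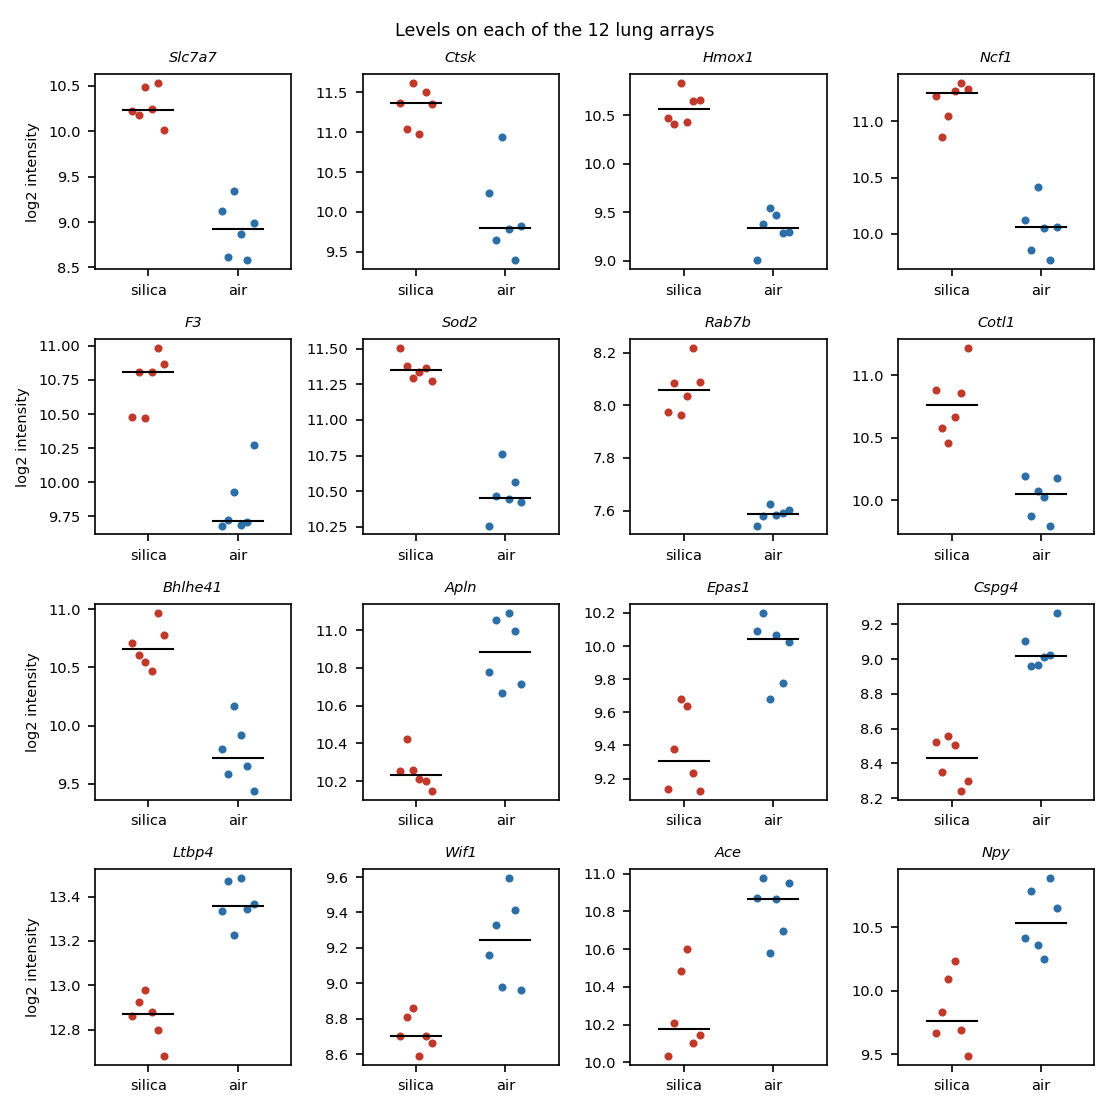
Levels (log2 intensity) of 16 genes on each of the 12 lung arrays, silica at left and air at right in each panel, with a bar at the median of 6. Silica and air points do not overlap for Slc7a7, Hmox1, Sod2, Rab7b, Apln, Cspg4 and Ltbp4, and they meet for Epas1 and Ace.

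Ranking by p in place of size brought up genes whose replicates were tight, some of them with small changes. Besides Retnla, Slc26a4, Ccl2 and Hmox1, the 10 smallest p-values belonged to Sting1, Fcgr2b, Rab7b, Rgs12, Prelp and Vtn. Sting1, the adaptor that signals the presence of cytosolic DNA, had levels of 7.79, 7.81 and 7.90 in silica lungs, against 7.53, 7.56 and 7.58 in air lungs, a log2 change of 0.27 (SE 0.019, adjusted p = 5.56e-05). Rab7b, a small GTPase of late endosomes and lysosomes, had 7.96, 8.06 and 8.22 in silica lungs and 7.54, 7.59 and 7.62 in air lungs, a log2 change of 0.47 (SE 0.038, adjusted p = 5.56e-05). Both genes sat near the low end of the scale in air lungs and higher in every silica lung. On the falling side, Prelp, a leucine-rich proteoglycan that anchors basement membranes, had 9.62, 9.75 and 9.81 in silica lungs, against 10.20, 10.28 and 10.41 in air lungs, a log2 change of -0.55 (SE 0.042, adjusted p = 5.56e-05). Rgs12, a regulator of G protein signalling, fell by 0.57 (SE 0.044) and Vtn, the plasma and matrix protein vitronectin, fell by 0.69 (SE 0.056), with adjusted p of 5.56e-05 and 6.1e-05.

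Most measured members of a list built around Fc receptors, by which phagocytes bind antibody-coated particles, rose. The list holds Fc receptors and adaptors with activation motifs (ITAM). It also holds Trem1, Trem2 and Hcst, which are not Fc receptors. Of its 14 measured members, 12 rose (85.7%, against 8.26% of all probes tested) and 0 fell. The median log2 change was 0.27, against -0.0043 over all probes tested. Fcgr2a, an activating receptor for IgG whose probe the array names Fcgr3, had levels of 9.88, 10.01 and 10.38 in silica lungs, against 9.33, 9.46 and 9.69 in air lungs, a log2 change of 0.59 (SE 0.086, adjusted p = 0.00128). Trem2, a lipid-sensing receptor of macrophages, had 12.36, 12.43 and 12.63 in silica lungs and 11.66, 12.01 and 12.28 in air lungs, a log2 change of 0.48 (SE 0.093, adjusted p = 0.0053). The inhibitory receptor Fcgr2b rose as well, by 0.22 (SE 0.018, adjusted p = 5.56e-05), and so did Trem1 by 0.31 and Hcst by 0.50, the call of Hcst being lost without air replicate 4 or 5 (adjusted p up to 0.0549). The 2 members that did not pass were Fcgr3a, at 0.047, and Fcgrt, the recycling receptor for IgG, at -0.15. Low-affinity Fc receptor genes are close in sequence, and cross-hybridization between their probes was not tested. With arrays shifted to the median of detected probes, 4 of the 14 passed, and 1 did with arrays shifted to the median of all probes. Other receptors of uptake were mixed, with 6 rises and 3 falls of 18 scavenger receptors and lectins and a median of 0.036.

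Markers of myeloid cells were averaged on each array. Of 16 measured markers of monocytes and recruited macrophages, 9 rose and 0 fell, with a mean log2 level relative to the air mean of 0.46, 0.60 and 0.74 in silica lungs and -0.07, -0.02 and 0.14 in air lungs. Alveolar macrophage markers gave 4 rises (2 with arrays shifted to the median of detected probes) and 2 falls of 10, at 0.14, 0.19 and 0.35 in silica lungs and -0.08, 0.00 and 0.10 in air lungs. Their log2 changes were mixed, from -0.65 to 1.63 with a median of 0.094, and 6 lay above 0 and 4 below, so the mean leans on the largest rises. Among the 2 falls was Car4, which is named below for alveolar capillaries, and the part that capillaries have in its fall was not tested. Neutrophil markers gave 3 rises and 1 fall of 11, at 0.18, 0.26 and 0.31 in silica lungs and -0.19, -0.03 and 0.31 in air lungs. Most neutrophil markers did not rise, with 4 above 0, 7 below, a median log2 change of -0.003 and a highest of 1.51. Both macrophage lists showed no overlap between the groups and the neutrophil list did, and the part that cell numbers have in the receptor, signalling, actin and lysosome results was not tested.

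Signalling and movement genes of leukocytes followed the same direction. Of 27 measured leukocyte kinases and phosphatases, 11 rose and 0 fell, among them Ptpn6 (0.41, adjusted p = 0.00773), Dok3 (0.34, adjusted p = 0.00929) and Vav1 (0.26, adjusted p = 0.00794). Of 28 measured regulators of actin in leukocytes, 9 rose and 0 fell, with a median of 0.15. Cotl1, which binds filamentous actin, had levels of 10.46, 10.76 and 11.22 in silica lungs, against 9.80, 10.05 and 10.19 in air lungs, a log2 change of 0.75 (SE 0.12, adjusted p = 0.0021). Capg, an actin-capping protein gene of macrophages, rose by 0.61 (adjusted p = 0.000308), Nckap1l by 0.52 (adjusted p = 0.002) and Fermt3, the kindlin of blood cells, by 0.49 (adjusted p = 0.00185). Actb and Actg1, the actins that all cells use, had log2 changes of -0.016 and 0.0059 and did not pass. Actb lay near the top of the array's range, at 14.45 in its lowest air lung, so its flat value is no firm contrast. Scaling by the median of detected probes left 7 rises of the kinases and phosphatases and 5 of the actin regulators.

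Integrins gave 3 rises and 4 falls. Of 18 measured, the leukocyte integrin genes Itgb2 (0.32, adjusted p = 0.0185), Itgam (0.16, adjusted p = 0.000967) and Itgax (0.080, adjusted p = 0.00165) rose, while Itga1, a collagen receptor of mesenchymal and endothelial cells (-0.54, adjusted p = 0.0049), Itgb5 (-0.31, adjusted p = 0.00533) and 2 others fell. With arrays scaled by the median of detected probes, 0 integrins rose and 2 fell, so the calls of Itgb2, Itgam and Itgax were all lost. Adhesion genes gave 1 rise and 3 falls of 14, with Cd44, the hyaluronan receptor, at 0.50 (adjusted p = 0.00384) and Icam2, an endothelial ligand of leukocyte integrins, at -0.43 (adjusted p = 0.000331), and the rise of Cd44 was lost under the same shift. Selp and Icam1, which inflamed endothelium displays, had log2 changes of 0.035 and -0.14 and did not pass.

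Subunits of the proton pump that acidifies lysosomes rose in 10 of 16 measured members, fell in 0, and had a median log2 change of 0.19, which a shift to the median over all probes turned to -0.025. Atp6v1b2, the B2 subunit, had levels of 12.52, 12.57 and 12.70 in silica lungs, against 11.84, 12.07 and 12.25 in air lungs, a log2 change of 0.53 (SE 0.063, adjusted p = 0.000361). Atp6v0d2, a subunit isoform used by macrophages and osteoclasts, had 7.997, 8.18 and 8.29 in silica lungs and 7.60, 7.67 and 7.85 in air lungs, a log2 change of 0.49 (SE 0.054, adjusted p = 0.00025). Both showed no overlap between silica and air lungs, and these were the 2 members that also passed with arrays shifted to the median of detected probes. Tcirg1, another isoform of osteoclasts and immune cells, rose by 0.41 (adjusted p = 0.00768) and Atp6v1a by 0.42 (adjusted p = 0.00722). Autophagy genes gave 0 rises and 1 fall of 18, with Sqstm1, the cargo receptor p62, at 0.24 (adjusted p = 0.0592).

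Within energy metabolism, glycolysis gave 7 rises and 0 falls of 19 measured genes, led by Hk3, the hexokinase of leukocytes (0.80, adjusted p = 0.00155), the lactate exporter gene Slc16a3 (0.72, adjusted p = 0.0215), Gapdh (0.46, adjusted p = 0.00978) and Ldha (0.34, adjusted p = 0.0136). The pentose phosphate pathway, which makes NADPH, gave 3 rises of 5. Respiratory complex I gave 0 calls of 28, beta-oxidation 0 of 19, complexes II to V 3 rises of 28 and cytosolic ribosomal proteins 2 rises and 3 falls of 65. Their median log2 changes were -0.022, -0.027, -0.0080 and 0.010. With arrays shifted to the median of detected probes the 4 medians were -0.11, -0.15, -0.064 and -0.013, so the ribosomal one turned sign. Under that shift 2 of the glycolysis genes passed, and 0 of the pentose phosphate genes and 0 genes of complexes II to V did. Beta-oxidation and ribosomal proteins gave 0 rises and 1 fall each there.

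Genes for iron and haem handling gave 9 rises and 2 falls of 25 measured. Beside Hmox1 and Hp, Ftl1, the ferritin light chain, rose by 0.41 (adjusted p = 0.000149), the phagosomal metal transporter gene Slc11a1 by 0.48 (adjusted p = 0.004) and the metallothionein gene Mt1 by 0.63 (adjusted p = 0.0122). Heph, an oxidase needed to export iron, had levels of 9.89, 9.99 and 10.08 in silica lungs, against 10.09, 10.28 and 10.68 in air lungs, a log2 change of -0.36 (SE 0.087, adjusted p = 0.0149). Fth1, the ferritin heavy chain, had a log2 change of -0.041 and the iron exporter gene Slc40a1 one of -0.14, and neither passed. Xenobiotic enzymes gave 2 rises and 8 falls of 33. Gstm2 fell by 0.47 (adjusted p = 0.00878) and Gsta4 fell by 0.40 (adjusted p = 0.0111), both glutathione transferase genes, and Ephx1, an epoxide hydrolase gene, fell by 0.37 (adjusted p = 0.0274), while Gsto1, a transferase of another class, rose by 0.38 (adjusted p = 0.000555). The call of Ephx1 was lost when silica replicate 1 or 2 or air replicate 4, 5 or 6 was left out (adjusted p up to 0.0598). The count of 8 falls became 3 without air replicate 4, air replicate 5 or silica replicate 1, 4 without air replicate 6, and 5 without air replicate 2, air replicate 3, silica replicate 5 or silica replicate 6.

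**Figure D3:**
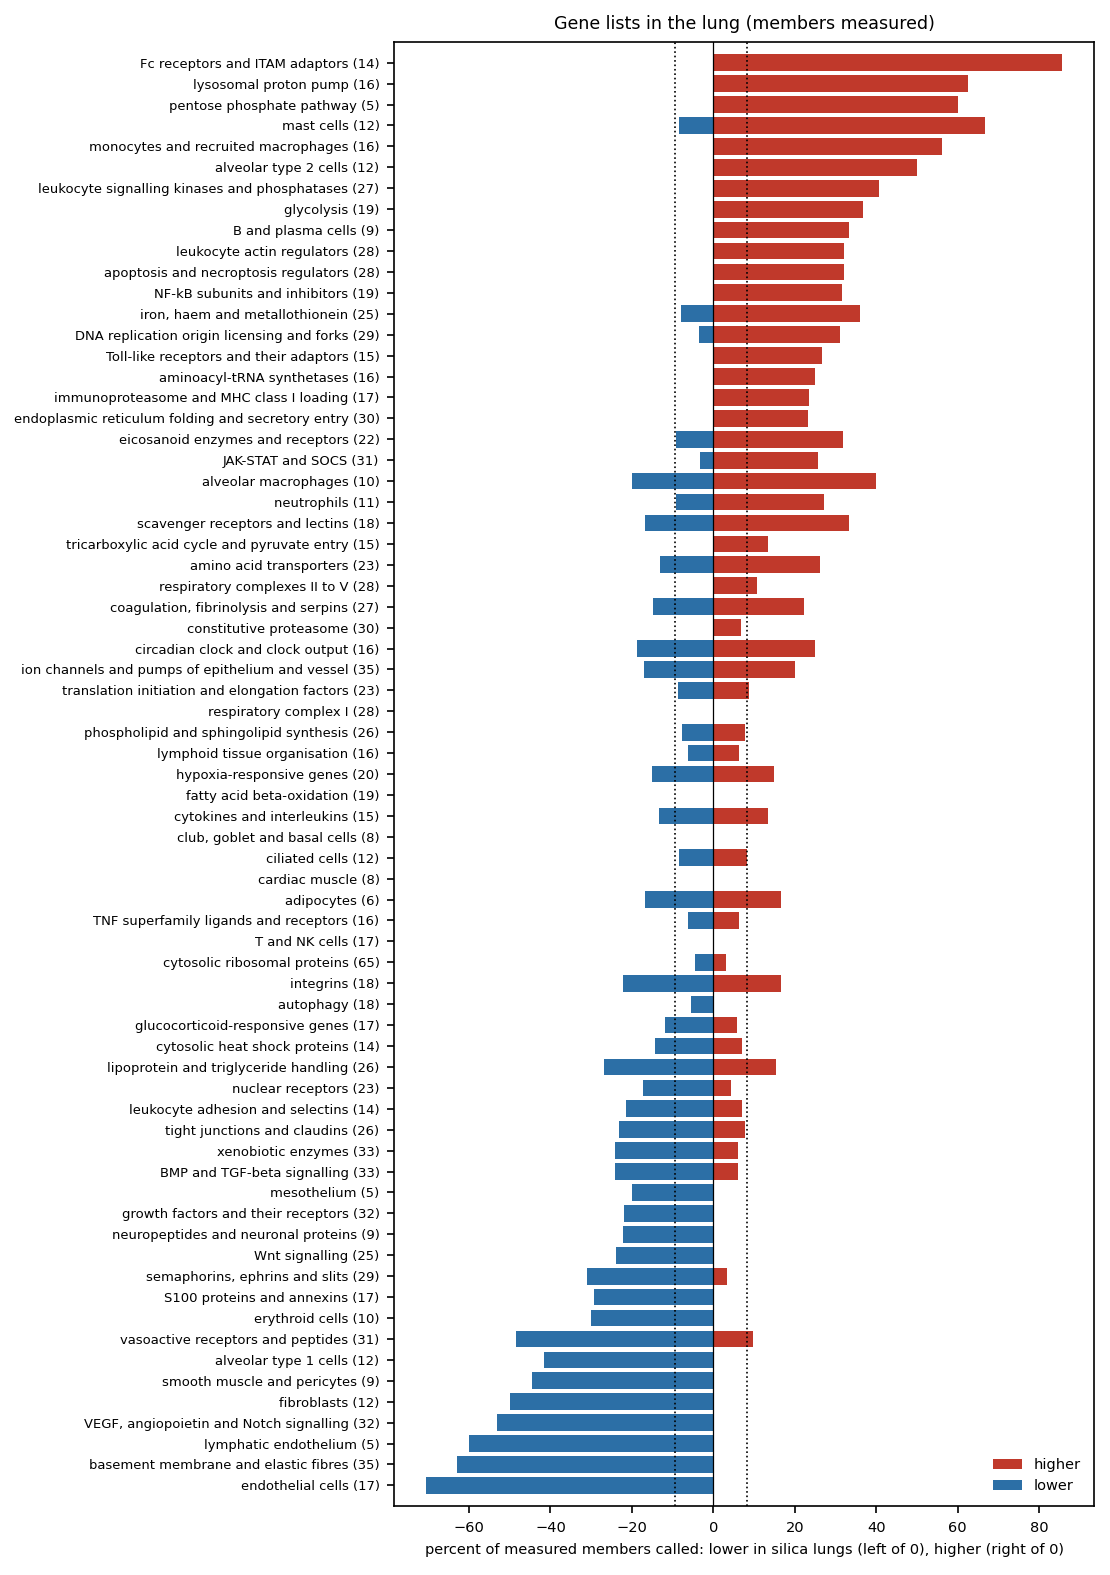
For each gene list with at least 5 measured members (number in brackets), the bars give the percent of measured members that were higher (right) or lower (left) in silica lungs at an adjusted p under 0.05. The dotted lines mark the same percents over all 11399 probes tested, 8.26% and 9.46%. The list of Fc receptors and ITAM adaptors, which also holds Trem1, Trem2 and Hcst, reaches furthest on the side of rises, with 12 of 14. Endothelial cells, with 12 of 17, reach furthest on the side of falls.

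Among inflammatory signals, Il18 rose and Il15 fell. Of 15 measured cytokines and interleukins, 2 rose and 2 fell (26.7% called, against 17.7% of all probes tested), with the falls including Il15 (-0.36, adjusted p = 0.00316). Il18, which inflammasomes activate, had levels of 10.03, 10.38 and 10.55 in silica lungs, against 9.23, 9.57 and 9.91 in air lungs, a log2 change of 0.76 (SE 0.12, adjusted p = 0.0021), with no overlap. Il1b, the other main inflammasome product, had a log2 change of -0.24 (adjusted p = 0.56). Of the JAK-STAT and SOCS list, 8 rose and 1 fell of 31, among them Jak3 (0.57, adjusted p = 0.00501) and Jak2 (0.34, adjusted p = 0.00227). After a shift of arrays to the median of detected probes, 1 rose and 1 fell, and the call of Jak2 was lost. NF-kB subunits and inhibitors gave 6 rises and 0 falls of 19, none above 0.30 on the log2 scale, 3 rises without air replicate 4, 5 or 6, and 0 under that shift. Toll-like receptors and adaptors gave 4 rises of 15, led by Cd14, the co-receptor for endotoxin (0.61, adjusted p = 0.00349), of which 1 was left under it. Apoptosis regulators gave 9 rises and 0 falls of 28, led by Bcl2a1, a survival gene of leukocytes (0.74, adjusted p = 0.000865), with the caspase gene Casp8 at 0.044 and not passing, and 5 rises were left under it. Replication genes gave 9 rises and 1 fall of 29, with Rrm2, the ribonucleotide reductase subunit of dividing cells, at 0.43 (adjusted p = 0.00131) and Pola2, a polymerase alpha subunit, at -0.69 (adjusted p = 0.000319). Of the replication genes 1 rose and 1 fell under the same shift, and 0 rose and 1 fell with arrays shifted to the median of all probes.

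Lipid mediators and clotting were mixed. Tbxas1, thromboxane synthase, rose by 0.53 (adjusted p = 0.000303), while Ptgis, prostacyclin synthase of vessel walls, fell by 0.45 (adjusted p = 0.0114), in a list of 22 eicosanoid genes with 7 rises, or 4 without air replicate 6, and 2 falls. In the list of clotting, fibrinolysis and serpins, 6 rose and 4 fell of 27. F3 led the rises, followed by the elastase inhibitor gene Serpinb1a (0.72, adjusted p = 6.71e-05) and the fibrinogen gamma chain Fgg (0.44, adjusted p = 0.0139). Thbd, the endothelial anticoagulant receptor thrombomodulin, fell by 0.35 (adjusted p = 0.044), a call lost without any 1 array other than air replicates 1 and 3 and silica replicate 2 (adjusted p up to 0.0928). The 4 falls became 2 when silica replicate 1, 4 or 6 or air replicate 4 or 5 was left out, and 1 when silica replicate 3 or 5 or air replicate 2 or 6 was. After a shift over detected probes, the eicosanoid genes gave 3 rises and 2 falls and the clotting list 4 rises and 1 fall, without Fgg.

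In the epithelium, the markers of the alveolar cell types moved apart. Of 12 measured alveolar type 2 markers, 6 rose and 0 fell, and of 12 alveolar type 1 markers, 0 rose and 5 fell. Scaled by detected probes, 3 of the type 2 markers rose, without Sftpa1, and 5 of the type 1 markers fell. Muc1, an apical mucin, had levels of 11.14, 11.34 and 11.57 in silica lungs, against 10.35, 10.55 and 10.81 in air lungs, a log2 change of 0.77 (SE 0.093, adjusted p = 0.000414). The surfactant genes themselves differed, with Sftpd at 0.61 (adjusted p = 0.00256) and Sftpa1 at 0.24 (adjusted p = 0.00161) but Sftpb at -0.062 (adjusted p = 0.514) and Sftpc at 0.052 (adjusted p = 0.549), both near the top of the array's range. Among type 1 genes, the caveolin gene Cav1 fell by 0.43 (adjusted p = 0.0021), the water channel gene Aqp5 fell by 0.42 (adjusted p = 0.00781) and Ager, which type 1 cells make abundantly, fell by 0.27 (adjusted p = 0.0104). Cav1 is not confined to type 1 cells, and the part that endothelium has in its fall was not tested. Ion channels and pumps split 7 up and 6 down of 35. Beside Slc26a4, the calcium channel gene Trpv2 (0.56, adjusted p = 0.000503) rose, and Car4, a membrane carbonic anhydrase of alveolar capillaries, fell by 0.58 (adjusted p = 0.000414).

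Many genes of the vessel wall fell. Of 17 measured endothelial markers, 12 fell and 0 rose, and their mean log2 level relative to the air mean ran at -0.52, -0.39 and -0.30 in silica lungs and -0.11, 0.02 and 0.07 in air lungs, without overlap. The part that endothelial cell number has in the results on vessel genes was not tested. Lists share members, so their counts are not separate results. The endothelial markers Aplnr, Ramp2, Acvrl1 and Gpihbp1 are also counted in the lists of VEGF, vessel tone, BMP and lipoprotein genes. Of 32 measured genes of VEGF, angiopoietin and Notch signalling, 0 rose and 17 fell, with a median log2 change of -0.16. Beside Apln, its receptor gene Aplnr fell by 0.59 (adjusted p = 0.000284), the endothelial transcription factor gene Sox18 fell by 0.55 (adjusted p = 0.0254) and the receptor gene Notch1 fell by 0.48 (adjusted p = 0.000605). The call of Sox18 was lost without silica replicate 1 or 2 (adjusted p up to 0.0561). The ligand gene Vegfa had a log2 change of -0.39 (adjusted p = 0.0883) and the receptor gene Flt1 one of -0.028 (adjusted p = 0.208), and neither passed. With arrays shifted to the median of detected probes, 13 of the 32 fell. Receptors, peptides and enzymes that set vessel tone gave 3 rises and 15 falls of 31, or 3 and 9 under that shift. Ace, the angiotensin-converting enzyme on lung capillaries, had levels of 10.03, 10.18 and 10.60 in silica lungs, against 10.58, 10.87 and 10.98 in air lungs, a log2 change of -0.56 (SE 0.11, adjusted p = 0.00501). Only the highest silica lung reached the lowest air lung. The angiotensin receptor gene Agtr1a fell by 0.53 (adjusted p = 0.000345), Ramp2, which shapes the adrenomedullin receptor, fell by 0.50 (adjusted p = 0.00162) and Gucy1b1, a subunit of the nitric oxide receptor, fell by 0.48 (adjusted p = 0.00545).

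Among signals that pattern vessels and airways, falls outnumbered rises. The BMP and TGF-beta list gave 2 rises and 8 falls of 33, with the BMP receptor genes Acvrl1 and Bmpr2, which are mutated in human pulmonary hypertension, at -0.47 (adjusted p = 0.00282) and -0.44 (adjusted p = 0.0182), and the inhibitor Bambi at -0.49 (adjusted p = 0.00623). Tgfb1, the ligand tied to fibrosis, had a log2 change of 0.12 (adjusted p = 0.584). Of 25 measured Wnt genes, 6 fell and 0 rose, with a median of -0.013. Wif1, a secreted Wnt inhibitor, had levels of 8.59, 8.70 and 8.86 in silica lungs, against 8.96, 9.25 and 9.59 in air lungs, a log2 change of -0.52 (SE 0.10, adjusted p = 0.00628). Every silica lung lay below every air lung. Semaphorins, ephrins and slits gave 9 falls of 29 and 1 rise, that of Sema4a, a semaphorin of immune cells (0.64, adjusted p = 0.000274). Growth factors and their receptors gave 7 falls and 0 rises of 32, among them Fgfr4 (-0.45, adjusted p = 0.000217) and Pdgfa (-0.33, adjusted p = 0.00341). Under the shift over detected probes, the falls numbered 6 in the BMP and TGF-beta list, 2 among Wnt genes, 4 among semaphorins, ephrins and slits, and 8 among growth factors and their receptors, against 0, 0, 1 and 0 rises. The medians of the Wnt and semaphorin lists turned to 0.094 and 0.017 there, the semaphorin one being -0.049 after quantile normalization.

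Basement membrane and elastic fibre genes gave 22 falls and 0 rises of 35 measured, with a median log2 change of -0.19. Ltbp4, which guides elastic fibre assembly, had levels of 12.68, 12.87 and 12.98 in silica lungs, against 13.23, 13.36 and 13.48 in air lungs, a log2 change of -0.52 (SE 0.055, adjusted p = 0.000216). The type IV collagen gene Col4a1 fell by 0.50 (adjusted p = 0.00188), the elastic fibre gene Fbln5 fell by 0.47 (adjusted p = 0.0436), Mfap4 of the same fibres fell by 0.45 (adjusted p = 0.00255), and elastin itself (Eln) had a log2 change of -0.18 (adjusted p = 0.397). The call of Fbln5 was lost without any 1 array other than air replicates 1 and 3 and silica replicate 6 (adjusted p up to 0.0921). With arrays shifted to the median of detected probes, 16 of the 35 fell. Mural cells went the same way, with 4 falls and 0 rises of 9 measured markers of smooth muscle and pericytes, led by Cspg4 and followed by Higd1b (-0.47, adjusted p = 0.000165), with 2 falls left when silica replicate 1, 2 or 5 or air replicate 4 or 5 was left out. Fibroblast markers gave 6 falls and 0 rises of 12, with Col1a1 and Col3a1, the main collagens of scar tissue, at -0.0043 (adjusted p = 0.96) and -0.11 (adjusted p = 0.622). Lymphatic endothelium gave 3 falls of 5, led by Lyve1 (-0.52, adjusted p = 0.0146).

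**Figure D4:**
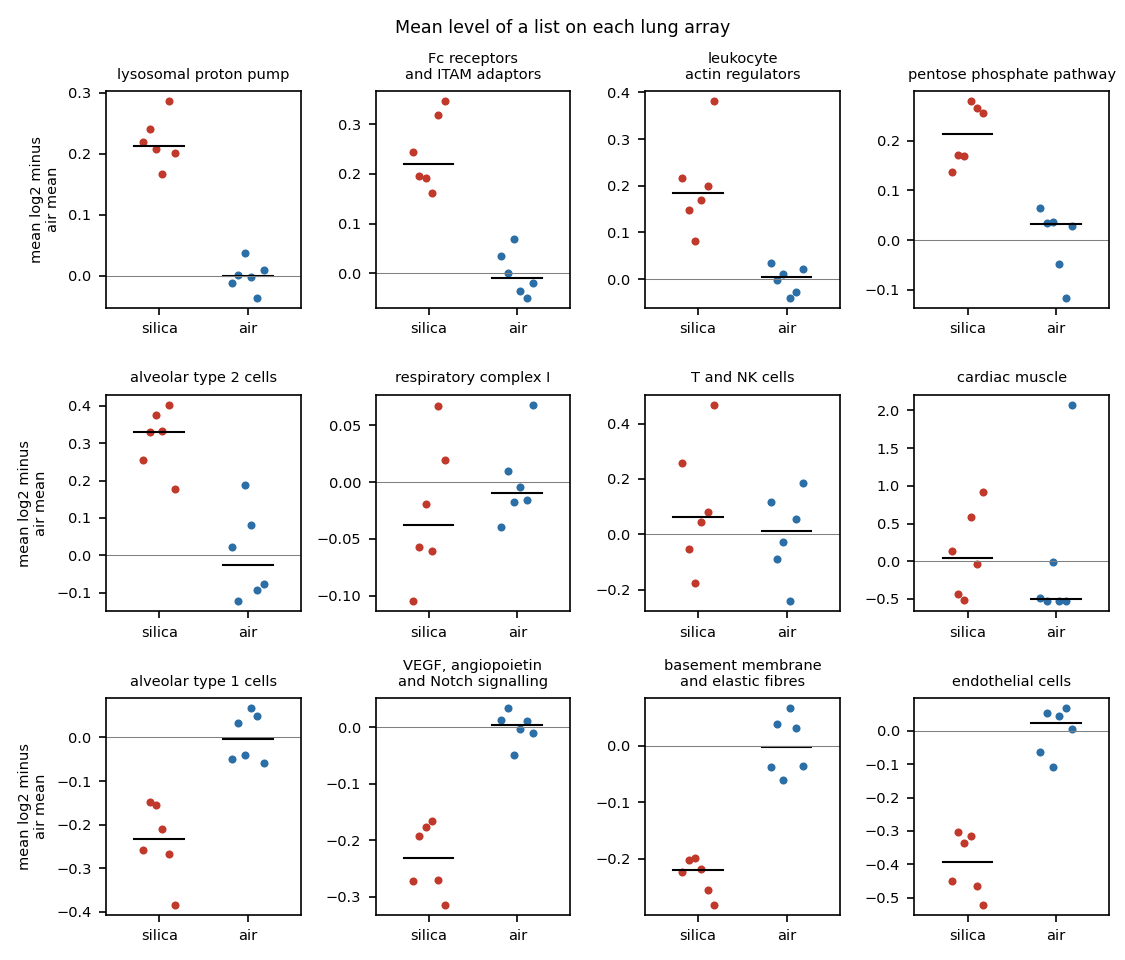
Mean log2 level of the measured members of 12 lists on each lung array, minus the mean of the 6 air arrays, with silica at left, air at right and a bar at the median of 6. Each panel has its own axis. Silica lungs lie above air lungs for the proton pump, Fc receptor and ITAM, actin regulator and pentose phosphate lists. They lie below air lungs for the type 1, VEGF, basement membrane and endothelial lists. Type 2 cells, complex I, T and NK cells and cardiac muscle overlap.

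Other groups held single large changes. Of 23 measured amino acid transporters, 6 rose and 3 fell, or 1 and 3 with arrays shifted to the median of detected probes. Slc38a5, a glutamine transporter gene, had levels of 9.50, 9.75 and 9.99 in silica lungs, against 10.20, 10.56 and 10.85 in air lungs, and Slc7a10, a transporter of small neutral amino acids, had 8.64, 8.78 and 8.88 in silica lungs and 9.20, 9.57 and 9.85 in air lungs. Their log2 changes of -0.81 (SE 0.11, adjusted p = 0.000846) and -0.80 (SE 0.095, adjusted p = 0.000367) came without overlap and ran opposite to that of Slc7a7. Npy, the vasoconstrictor peptide of sympathetic nerves, had levels of 9.49, 9.76 and 10.24 in silica lungs, against 10.25, 10.53 and 10.89 in air lungs, a log2 change of -0.72 (SE 0.15, adjusted p = 0.00668). S100 proteins and annexins gave 0 rises and 5 falls of 17, led by S100a1 (-0.48, adjusted p = 0.0059) and S100a4 (-0.36, adjusted p = 0.0195), with the neutrophil gene S100a8 at 0.40 (adjusted p = 0.359).

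Markers of T and NK cells varied between lungs, while the mean level of B and plasma cell markers did not overlap between the groups. Of 17 measured T and NK cell markers, 0 passed in either direction, and their mean level ran at -0.18, 0.06 and 0.47 in silica lungs and -0.24, 0.01 and 0.19 in air lungs, relative to the air mean. The lymphoid chemokine genes Cxcl13, which attracts B cells, and Ccl19, which attracts T cells, had large log2 changes of 1.54 (SE 0.60, adjusted p = 0.105) and 1.30 (SE 0.51, adjusted p = 0.107) that did not pass. Cxcl13 had levels of 7.54, 8.62 and 11.53 in silica lungs, against 7.46, 7.56 and 7.94 in air lungs. The silica lungs covered a wide range and 1 of them stayed at the level of the air lungs. Mzb1, a plasma cell gene, rose by 0.37 (adjusted p = 0.00104), and mast cell genes gave 8 small rises and 1 fall of 12, of which Mcpt10 was the largest at 0.33 (adjusted p = 0.00655). All 8 of these rises were of probes that were undetected on some arrays, and with only probes detected on all 12 arrays 0 rose and 1 fell, so no change of mast cell genes is read from them. Under the shift over detected probes, 3 rose and 1 fell. Erythroid markers gave 0 rises and 3 falls of 10, at -0.17, -0.14 and -0.10 in silica lungs and -0.09, -0.01 and 0.10 in air lungs. B and plasma cell markers gave 3 rises and 0 falls of 9, at 0.23, 0.47 and 0.56 in silica lungs and -0.10, 0.00 and 0.12 in air lungs. Their log2 changes ran from 0.01 to 1.45 with a median of 0.18. Of these markers 3 rose under the shift over detected probes and 0 under the shift over all probes. Ciliated cell markers gave 1 rise and 1 fall of 12. That share of 16.7% did not exceed the 17.7% over all probes tested, so nothing is read from it. Mesothelial markers gave 1 fall of 5 (20.0%), and adipocyte markers 1 rise and 1 fall of 6 (33.3%).

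Genes of the circadian clock gave 4 rises and 3 falls of 16 measured. In this clock, CLOCK and BMAL1 drive genes through the E-box, the letters CACGTG, and among those genes are repressors (Cry1, Bhlhe40, Bhlhe41, and Nr1d1, which represses Bmal1) and output factors such as Tef. Bhlhe41 had levels of 10.47, 10.66 and 10.97 in silica lungs, against 9.44, 9.73 and 10.17 in air lungs, and Cry1 had 8.71, 9.34 and 9.60 in silica lungs and 8.32, 8.49 and 8.87 in air lungs. The groups did not overlap for Bhlhe41 and did for Cry1. Cry1 rose by 0.74 on the log2 scale (SE 0.15, adjusted p = 0.00626), Nfil3 by 0.42 (adjusted p = 0.00738) and Bhlhe40 by 0.42 (adjusted p = 0.0119). Nr1d1 fell by 1.46 (adjusted p = 0.000917), Rora fell by 0.25 (adjusted p = 0.0458) and Tef fell by 0.19 (adjusted p = 0.0142). Under the shift over detected probes, the calls of Bhlhe40 (0.30, adjusted p = 0.191), Tef (-0.12, adjusted p = 0.357) and Rora (-0.38, adjusted p = 0.0583) were lost, and those of Bhlhe41 and Nr1d1 were not. The list gave 3 rises and 2 falls there, so a clock gene not called after quantile normalization was called as a fall. The call of Rora was lost without any 1 array other than air replicate 6 and silica replicate 3 (adjusted p up to 0.0965). Bmal1 at 0.11, Per1 at -0.24 and Per2 at -0.49 did not pass. The time of day at which the lungs were taken is not given in the sources used here.

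Promoter windows of these clock genes are shown because genes with the same motif close by were called in opposite directions. The windows come from RefSeq tables of the rat genome build GRCr8, with the E-box in capitals and the bases around it in lower case, up to 40 on either side, 5′ to 3′ on the strand of the gene. Nr1d1 and Tef fell, and Bhlhe41 and Bhlhe40 rose, with the calls of Tef and Bhlhe40 lost under the scaling named above.
Nr1d1: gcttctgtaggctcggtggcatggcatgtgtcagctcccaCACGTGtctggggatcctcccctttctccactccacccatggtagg
Tef: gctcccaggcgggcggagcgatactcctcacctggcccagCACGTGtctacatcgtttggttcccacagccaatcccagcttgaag
Bhlhe40: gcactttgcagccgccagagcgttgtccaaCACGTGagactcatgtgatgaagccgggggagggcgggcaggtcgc
Bhlhe41: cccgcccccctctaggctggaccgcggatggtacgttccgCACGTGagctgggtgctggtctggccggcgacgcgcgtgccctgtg
The windows lie at chr10:84229600-84229685 (minus strand), chr7:115206589-115206674 (plus strand), chr4:143174200-143174275 (plus strand) and chr4:180569358-180569443 (minus strand), and the motif begins 191, 198, 220 and 48 bases before the annotated start. Nr1d1 has a pair of annotated starts, and the one shown is the one with the motif. The E-box reads the same on both strands. It was found in the windows (250 bases before to 50 after the start) of 4 of the 6 clock genes that changed and had a window, of 5 of the 19 clock genes with a window in all, and in 2148 of 33469 windows (6.42%) across the genome. The D-box TTATGNAA, searched on both strands, was in 1 of the 19 and in 3.66% of all windows, and the half-site AGGTCA, also on both strands, in 3 of the 19 and in 16.18% of all windows. A match is a run of letters and does not show that a factor binds there.

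Where the changed genes are otherwise measured differed with direction. Of the 942 rises, 783 (83.1%) were detected on all 12 BALF cell arrays and 70 (7.4%) on none of them. Of the 1078 falls, 551 (51.1%) were detected on all 12 BALF cell arrays and 329 (30.5%) on none, and of all 11399 probes tested 70.8% and 12.8% were. Detected in neither BALF cells nor blood were 28 of the rises (3.0%), 247 of the falls (22.9%) and 9.0% of all probes tested. Of the 18 ranked rises, 14 were detected on all 12 BALF cell arrays and 2, Pla2g2a and Cxadrl1, on none. Of the 18 ranked falls, 5 were detected on all 12 and 9 on none, among them Cspg4, Zeb1, Ppp1r14a and Dmpk.

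The silica effect in the lung was then set against that in the lavage cells of the same rats. Over 9131 probes tested in both, the change differed between the tissues for 2053 (22.5%), tested on each rat's lung minus BALF cell level (limma, adjusted p under 0.05). In BALF cells alone 3187 of 9564 probes (33.3%) were called. Of 765 probes called in both tissues, 550 moved the same way and 215 the opposite way. Cfi, complement factor I, a plasma protease that degrades C3b and C4b, rose by 2.10 in lung tissue and had a log2 change of -0.051 in BALF cells, a difference of 2.15 (SE 0.19, adjusted p = 2.6e-05). Ubd, a ubiquitin-like protein induced by interferon, rose by 2.65 in the lung and had a log2 change of 0.99 in BALF cells, a difference of 1.65 (adjusted p = 0.00769). Heph, Fbp1, Ly49s4 and Gipc2 made up the other large positive differences, of 1.57 to 2.02, with BALF cell changes of -2.23 to -1.73 beside lung changes of -0.36 to -0.11, of which that of Gipc2 did not pass.

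The 6 genes with the largest negative lung minus BALF cell differences come next, and in these BALF cells changed more than the tissue. Apoe, the lipoprotein that macrophages secrete, had a log2 change of 0.42 in lung tissue (adjusted p = 0.0955, overlapping groups) and of 4.77 in BALF cells, a difference of -4.35 (SE 0.41, adjusted p = 3.35e-05). Hopx, a marker of alveolar type 1 cells in the tissue, had a log2 change of -0.11 in the lung and 3.31 in BALF cells, a difference of -3.42 (adjusted p = 3.53e-08). The MHC class II genes RT1-Da and RT1-Db1 rose in both, by 0.35 and 0.65 in the lung and 3.16 and 3.42 in BALF cells. Slfn3 and Il1r2, the decoy receptor for interleukin-1, had log2 changes of 0.028 and 0.37 in the lung without passing and of 2.77 and 2.78 in BALF cells. Among the genes named above, Slc7a7 (1.55), F3 (1.13) and Hmox1 (0.90) had positive differences and Rab7b (-0.93), Ccl7 (-2.37) and Fcgr2b (-1.05) negative ones, all at an adjusted p under 0.05. In the lung Tcrg fell by 0.63, and in BALF cells it changed by 0.52, a difference of -1.15 (adjusted p = 8.06e-08).

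**Figure D5:**
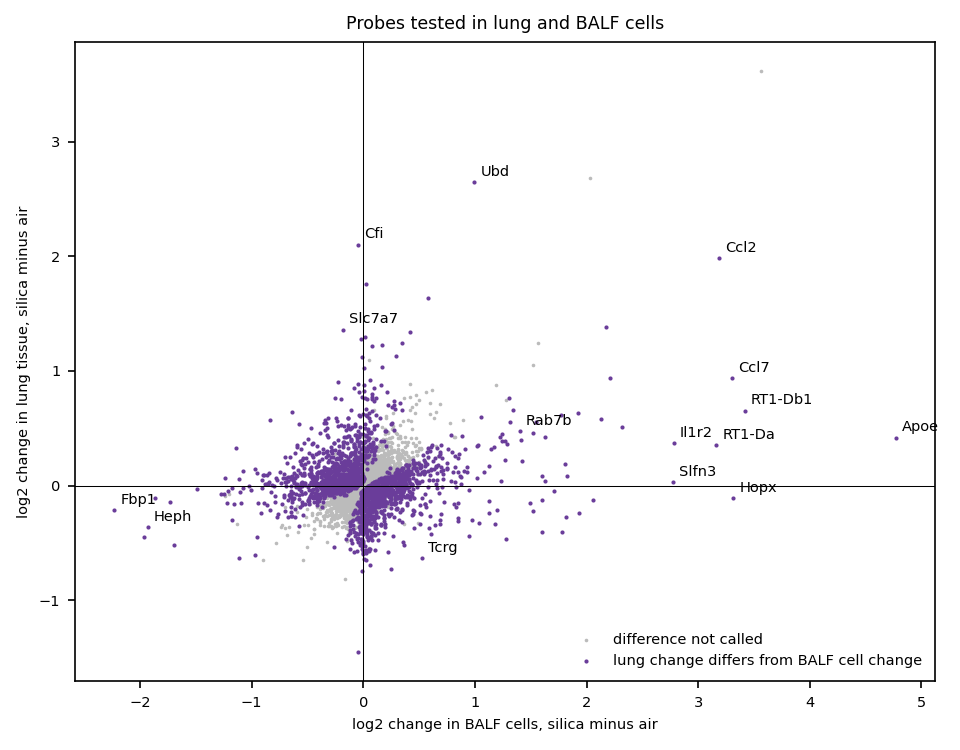
Each point is 1 of 9131 probes tested in both tissues, with the log2 change of silica minus air in BALF cells across and in lung tissue upward (6 rats per group). Purple points are the 2053 whose change differed between the tissues at an adjusted p under 0.05, with Cfi and Ubd above and Apoe, Hopx and RT1-Da far to the right.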

How the data were processed

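Lung RNA of 12 rats was measured on Illumina rat BeadChips with 21792 probes, with 1 array per rat. The deposited tables hold a raw bead intensity and a detection p-value per probe and array, per the file headers, and the deposited series value table holds log2 values. BeadStudio, lumi and limma are the tools that the submitters' processing notes list, in no stated order. No slide or scan date is given in the sources used here, so array batches were not tested.

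The raw intensities were background-corrected and quantile-normalized with neqc (offset 16) in limma 3.58.1 under R 4.3.3. A probe was tested if its detection p was below 0.05 on 6 or more of the 12 arrays, with lmFit and eBayes, two-sided, with Benjamini-Hochberg adjustment and a threshold of 0.05. BALF cells were treated the same way, and the difference between tissues was tested on each rat's lung minus BALF cell value. P-values measure the spread between rats. The number of arrays limits the precision. In simulated data on 11399 probes with 200 changed, 72.5%, 94.5% and 100% of changes of 0.25, 0.5 and 1 on the log2 scale were recovered for the lung comparison. Noise was drawn independently for each probe on the normalized scale. These rates therefore do not cover the scaling of the arrays or noise shared between probes, and recovery in the real arrays can be lower.

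Symbols in the array's tables were matched to RefSeq names of the rat assembly GRCr8, where 9918 probes carried a current symbol, 4817 a synonym, 6940 neither and 117 no symbol. Many genes thereby carry another name than on the array, among them Cd177 (RGD1562941 on the array), Bhlhe41 (Bhlhb3), Bhlhe40 (Bhlhb2), C4b (C4-2), Zeb1 (Tcf8), Sting1 (RGD1562552), Rab7b (RGD1562617), RT1-Da (H2-Ea), Ablim3 (RGD1565118), Akr1c19 (RGD1562954), Entrep1 (RGD1307524), Selenom (RGD1565037) and Bmal1 (Arntl). A gene is represented by its probe of highest mean level.

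Gene lists, members and comparisons were chosen with earlier results of these data known. Named genes were called, had a matched name, and had all 6 silica arrays above, or all 6 below, the mean of the air arrays. They were those ranked 13 to 30 by size among rises and among falls, at most 4 of the largest per list, the 10 of smallest p, and the 6 largest lung minus BALF cell differences in each direction. Ftl1, Itgam, Itgax, Sftpa1, Slc11a1, Tef and the genes given as not passing were named after their values were seen, and some genes that the rule names are not reported here. Alternatives covered background correction, normalization, detection filter, the authors' values, moderation, array weights, offset, probe choice, the replicate block and leaving out each array.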

Additional observations from a re-analysis of the deposited data

Results flagged for a closer look

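Each of 177 named genes was examined in both groups of 6 lungs for an array whose gap to the nearest of the other 5 exceeded Dixon's 95% critical value. Chance alone sets apart about 1 in 20 groups, and 17 of 354 groups (4.8%) were. Air replicate 6 stood apart most often, being the highest air lung for Mt1 (10.83, next 10.38), Tcirg1 (9.89, next 9.55) and Cxcl13 (7.94, next 7.60) and the lowest for Eln (8.80, next 9.21) and Sftpc (14.00, next 14.18). Air replicate 3 was the highest air lung for Slc26a4 (9.01, next 8.06), Ccl2 (8.11, next 7.80) and RT1-Db1 (12.17, next 12.06). Air replicate 1 was the highest air lung for Sox18 (9.83, next 9.45) and Il1r2 (8.78, next 8.15) and the lowest for Actb (14.45, next 14.50). Silica replicate 5 was the highest silica lung for Capg (8.97, next 8.67) and Rrm2 (8.45, next 8.15) and the lowest for Notch1 (8.51, next 8.71). Silica replicate 6 was the highest silica lung for Hcst (10.02, next 9.49). Silica replicate 1 was the highest for Casp8 (7.73, next 7.68), and silica replicate 3 the lowest for Serpinb1a (11.09, next 11.22).

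The silica change differed between lung tissue and BALF cells by the within-rat test, in limma at an adjusted p under 0.05, for the 12 genes with the largest differences. The lung minus BALF cell log2 difference was 2.15 for Cfi, 2.02 for Fbp1, 1.76 for Ly49s4, 1.65 for Ubd, 1.59 for Gipc2 and 1.57 for Heph. It was -4.35 for Apoe, -3.42 for Hopx, -2.81 for RT1-Da, -2.76 for RT1-Db1, -2.74 for Slfn3 and -2.41 for Il1r2.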

How the results depend on the processing

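The scaling of the arrays mattered most. A shift of each lung array to a common median over all probes left 37 rises and 40 falls, and a shift over detected probes 322 rises and 659 falls, against 942 and 1078 after quantile normalization; the cause was not tested. The median log2 change of all tested probes was -0.0043 after quantile normalization, -0.0586 and 0.0616 under these shifts and -0.0076 in the authors' values. For the lung minus BALF cell difference, a shift over detected probes left 422 positive and 424 negative differences. Of the 146 named genes called in the lung, 26 kept their call and direction under the shift over all probes and 120 lost the call. Under the shift over detected probes 126 kept it, 19 lost it, and Ly49s4 turned to 0.004 (adjusted p = 0.969). The 19 were Atp6v1a, Bhlhe40, Cd44, Dnajc3, Fbp1, Fgg, Gapdh, Hcst, Itgam, Itgax, Itgb2, Jak2, Ldha, Mrc1, Rora, Sftpa1, Ssr4, Tcirg1 and Tef. With no detection filter 140 of the 146 kept it, and with array weights 145. The authors' values, no background correction, an offset of 50, a stricter detection p, 1 probe per gene and moderation with a trend kept all 146, and 144 of the 146 were tested and kept with detection on all 12 arrays. Leaving out 1 array at a time gave 756 to 948 rises and 819 to 1101 falls in the lung, and 956 to 1118 positive and 780 to 916 negative lung minus BALF cell differences. Of the 146, 138 kept their call without any 1 array, and the other 8 are Akap5, Ephx1, Fbln5, Hcst, Pla2g2a, Rora, Sox18 and Thbd. Silica and air rats share replicate numbers, but no source ties a number to a litter, cage or day. The correlation of deviations between rats of the same number ran from -0.396 to 0.327, and only replicate 6 correlated best with its own number. With the replicate block in the fit, 603 rises and 665 falls were called, 1201 of these 1268 probes were shared with the fit without it, and 129 of the 146 named genes kept their call. Low signal limits what can be seen, since 621 called changes are under 1.1-fold and lie near the background.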

Other observations

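Among genes of protein synthesis and quality control, the lists of secretory folding, aminoacyl-tRNA synthetases and the immunoproteasome held rises and no falls, beside 8.26% of rises over all probes tested. Of 30 measured genes of endoplasmic reticulum folding and secretory entry, 7 rose (23.3%, and 4 without air replicate 5) and 0 fell, with a median log2 change of 0.087, led by Ssr4, of the translocon complex, at 0.36 (adjusted p = 0.0023) and the chaperone gene Dnajc3 at 0.33 (adjusted p = 0.0185). Aminoacyl-tRNA synthetases gave 4 rises of 16 (2 without air replicate 6 or silica replicate 5). The immunoproteasome with MHC class I loading gave 4 rises of 17 (23.5%), with a median of 0.17. Translation factors gave 2 rises and 2 falls of 23 (17.4% called), and the constitutive proteasome 2 rises of 30 (6.7%). The shares of these last lists did not exceed the 17.7% called over all probes tested, so nothing is read from them. With arrays shifted to the median of detected probes, 0 members of these 5 lists passed in either direction. Cytosolic heat shock proteins gave 1 rise and 2 falls of 14, and the tricarboxylic acid cycle 2 rises of 15. Under the same shift the heat shock proteins gave 0 rises and 2 falls, and the tricarboxylic acid cycle 0 of either.

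Uptake and lipid genes of macrophages and vessels also changed. Of 18 measured scavenger receptors and lectins, 6 rose and 3 fell (2 and 1 with arrays shifted to the median of detected probes, without Mrc1), with the galectin gene Lgals3 at 0.61 (adjusted p = 0.00153), the mannose receptor gene Mrc1 at 0.51 (adjusted p = 0.0177) and the endothelial gene Cd93 at -0.35 (adjusted p = 0.00792). Lipoprotein and triglyceride handling gave 4 rises and 7 falls of 26, led by Gpihbp1, which holds lipoprotein lipase on capillaries (-0.86, adjusted p = 0.00342). The falls numbered 5 without air replicate 1 and 2 to 4 without any 1 other array. With arrays shifted to the median of detected probes, this list gave 0 rises and 3 falls. Tight junctions and claudins gave 2 rises and 6 falls of 26 (3 falls without air replicate 2 or silica replicate 5), with Cldn10 at 0.49 (adjusted p = 0.00532) and the plakoglobin gene Jup at -0.46 (adjusted p = 0.00162). Phospholipid and sphingolipid synthesis gave 2 rises and 2 falls of 26 (15.4% called), TNF superfamily genes 1 and 1 of 16 (12.5%) and glucocorticoid-responsive genes 1 and 2 of 17 (17.6%). These shares did not exceed the 17.7% over all probes tested, so nothing is read from them. Hypoxia-responsive genes gave 3 and 3 of 20, and nuclear receptors 1 and 4 of 23 (2 falls when silica replicate 1, 5 or 6 or air replicate 5 was left out). Under the shift over detected probes, hypoxia-responsive genes and nuclear receptors each gave 0 rises and 2 falls.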
